A study of Xenopus laevis with 4 samples.

Results

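The comparison described here sets the second of 2 independent experiments on gastrula embryos of the frog Xenopus laevis against the first. All 4 arrays of the series belong to it, 2 from each experiment, and they were assigned to experiment 1 or 2 by the replicate number in their titles. Each experiment held 1 array of embryos that received 80 ng of a control morpholino and 1 array of embryos that received 40 ng of xSGK1 morpholino 1 together with 40 ng of xSGK1 morpholino 2. Embryos came from in vitro fertilization, were injected radially as 4-cell embryos, and were grown to stage 12, at which RNA of whole embryos was taken; no genotype or strain is given. A morpholino is an antisense oligonucleotide that blocks the translation or the splicing of a transcript, and SGK1 is a protein kinase that acts downstream of PI3K.

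Every array of experiment 2 thus differed from its partner in experiment 1 in the embryo batch, while the injection was the same. Clutch, exact age within the stage, injection session, RNA preparation, labelling and hybridisation all change with the experiment and cannot be told apart in this design. The number of females and of embryos pooled per array is not given in the sources used here. Values below are deposited array signals, always in the order control and xSGK1 of experiment 1, then control and xSGK1 of experiment 2. A log2 difference is experiment 2 minus experiment 1 on the log2(signal + 16) scale, which understates differences of dim genes. Signals of different genes are not compared, since each probe set has its own response.

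During gastrulation the embryo clears transcripts that the egg stored and builds up those of its own genome. The germ layers are laid down in this period: the organizer, neural plate, epidermis, paraxial mesoderm that later forms muscle, ventral mesoderm and endoderm each switch on their own regulators. BMP signals hold the ventral side and the epidermis, while organizer antagonists such as chordin protect the neural plate. The species carries a duplicated genome, and the suffixes .L and .S mark the copies of a gene on its 2 subgenomes.

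The arrays were of like overall brightness. Median signals ran from 161 to 174, and between 9051 and 9210 of 15611 probe sets reached a signal of 100. The ratio of 3' to 5' signal of the beta-actin controls was 3.11 and 3.38 in experiment 1 and 2.24 and 2.06 in experiment 2, and that of GAPDH was 16.6 and 17.7 against 16.4 and 15.6. A hybridisation control, bioC, was also brighter in experiment 2: one of its probe sets measured 139, 143, 519 and 394. The other added transcripts (bioB, bioD and cre) did not show such a gap. The part of these measures in the results below was not tested.

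Embryos of both experiments carried transcripts of a gastrula. The mesodermal T-box gene tbxt.S (brachyury) measured 2752, 3314, 4018 and 2580, the neural gene sox3.S 2691, 2859, 2704 and 1968, and the endodermal gene sox17a.L 587, 530, 494 and 451. None of these 3 passed the limma test between the experiments (adjusted p = 0.747, 0.211 and 0.254), although both arrays of experiment 2 lay below both of experiment 1 for sox17a.L. They are examples and do not stand for their lists. Called lower were 15 of 24 paraxial, 8 of 28 neural plate and 6 of 26 endoderm genes (19.7% over all genes). Called higher were 0, 0 and 4 (21.3% over all genes). Of 33 markers of blood, liver, muscle, connective tissue, brain, pituitary and eye, 31 stayed under a signal of 100 on all arrays, the globins among them. The summed signal of the 33 was 1337 and 1142 in experiment 1 and 935 and 802 in experiment 2. The 2 that passed were the intermediate filament gene vim.L, which was lower in experiment 2 (log2 -1.15), and the creatine kinase gene ckm.L. The targeted transcript, sgk1.L, measured 2321, 3071, 2840 and 3301. Its experiments overlapped, with a log2 difference of 0.20 ± 0.11 (SE, limma adjusted p = 0.196), and since a morpholino need not change its transcript this checks no label.

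The 2 experiments differed over a large share of the measured transcripts, in both directions about equally. With injection as a block in limma, 3776 of 9251 probe sets, or 40.8%, were called at the adjusted threshold of 0.05. Of these, 1934 (20.9%) were higher in experiment 2 and 1842 (19.9%) were lower. Counted by gene, with the brightest probe set of each, 1107 of 5201 genes (21.3%) were higher and 1024 (19.7%) lower. The median of all probe sets lay at 0.01, the middle 50% between -0.38 and 0.42, and the 5th and 95th percentiles at -1.08 and 1.12. Of the called probe sets 1197 differed by at least 2-fold and 107 by at least 4-fold.

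Both injections showed these differences. Both arrays of one experiment lay above both of the other for 5687 probe sets, or 61.5%. At least 2-fold higher signal in experiment 2 with the control morpholino and also with the xSGK1 morpholinos was seen for 428 probe sets (4.63%), and at least 2-fold lower signal for 364 (3.93%). Across probe sets, the difference in the control pair and that in the xSGK1 pair, which share no array, correlated with each other (Pearson 0.838, Spearman 0.815). This is a description over genes, which are not independent replicates.

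Each fit leaves 1 residual degree of freedom per probe set, and the p-values rest on variances moderated across probe sets. That residual is the difference between the injections in the size of the experiment effect, so this difference itself could not be tested. Dropping the block put the injection effect into the spread and left 31 probe sets higher and 27 lower. At an unadjusted limma p under 0.05 there were then 2696, against 4695 with the block. Fits with 1 array left out had no block either. Their differences, and the list medians given for them below, also hold part of the injection difference. With 1 array left out and no block, the calls were 1 higher and 0 lower without control 1 (1235 at an unadjusted p under 0.05), and 2 higher and 0 lower without xSGK1 1 (2175). They were 459 higher and 612 lower without control 2 (2887), and 57 higher and 62 lower without xSGK1 2 (1639).

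**Figure D1:**
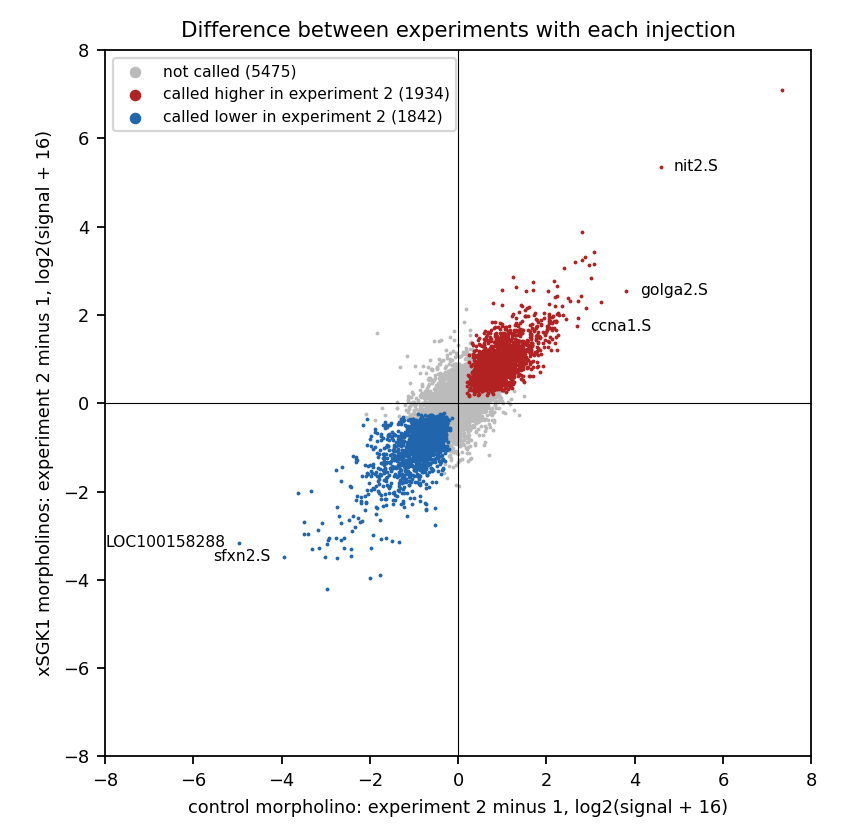
Difference between experiments 2 and 1 in the control pair (horizontal axis) and in the xSGK1 pair (vertical axis), both on the log2(signal + 16) scale, with 1 point per probe set (9251) coloured by its limma call. Points spread along the diagonal (Pearson correlation 0.838). All 3776 called probe sets have the same sign on both axes, which the fit itself favours. Its residual is the gap between the pairs, so opposite signs hardly allow a call.

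The 15 largest excesses in experiment 2 were in genes of various functions. Of the 15, nit2.S, irf3.L, sucla2.S, txn2.L, casp10.L, pgam1.L, hsd17b12.S, hip1r.L and rcbtb1.L had a mean under 100 in experiment 1. They passed the filter on dim signal (a mean of at least 100 over all arrays) only through experiment 2. The largest of the 15, nit2.S, an amidase of the nitrilase family, measured 47.2 and 25.4 in experiment 1 and 1502 and 1681 in experiment 2. Its signal was near the floor in both arrays of the first experiment and high in both of the second, a log2 difference of 4.97 ± 0.23 (SE, limma adjusted p = 0.00146). Because the signals of experiment 1 are so low, the size depends on the offset, with 5.48 at an offset of 1 and 4.05 at 64, and no fold is given. Mitochondrial enzymes were also among the 15. The succinyl-CoA synthetase subunit sucla2.S measured 73.4, 73.3, 684 and 763 (3.05), and the mitochondrial thioredoxin txn2.L 63.3, 50, 543 and 606 (3.03). Both were nearly level within each experiment.

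Further genes of the 15 act in conjugation, membrane traffic and protein modification. The UDP-glycosyltransferase ugt3a2.L measured 134, 126, 1245 and 1522 (log2 3.25), and the Golgi matrix protein gene golga2.S measured 373, 1075, 5459 and 6344 (3.18). The ubiquitin-like modifier ufm1.L, went from 618 and 526 to 2907 and 2861 (2.31). Lack of overlap between the experiments was a condition for entry into the 15. Lipid and membrane genes were hsd17b12.S, an enzyme of fatty acid elongation (54.1, 94.2, 392 and 534), the sorting nexin snx10.L (122, 236, 635 and 1337) and hip1r.L, which links clathrin coats to actin (24.9, 28.4, 152 and 242). The enzymes pgam1.L of glycolysis and ftcd.L of folate and histidine metabolism had log2 differences of 2.44 and 2.28, and rcbtb1.L had 2.22.

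Genes of innate immunity and cell death also stood among the 15 largest. The interferon regulatory factor irf3.L measured 15.4, 2.8, 203 and 260, and was thus near the floor in experiment 1 (log2 3.34 ± 0.30, limma adjusted p = 0.00243). The initiator caspase casp10.L, which acts at death receptors, measured 44.4, 34.2, 402 and 253 (2.61 ± 0.20, adjusted p = 0.00174). The last of the 15, ccna1.S, encodes the cyclin A that is stored in the egg, and its 254, 442, 1737 and 1513 gave 2.22 ± 0.24 (adjusted p = 0.00335).

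Of the 15 largest deficits in experiment 2, LOC100158288, sfxn2.S, otogl2.L, tuba1cl.3.L, pts.L, slc25a26.L, hebp2.S, olfm4.L, vta1.L and nxpe2.L had a mean under 100 there. They passed the filter only through experiment 1. The 15 split by how they stood with respect to the injection. In some, both arrays of an experiment were alike. The RNA-binding protein gene hnrnpa0.S measured 8844 and 8758 in experiment 1 and 1388 and 1313 in experiment 2, a difference of -2.69 ± 0.10 (SE, limma adjusted p = 0.000671). The mitochondrial carrier slc25a26.L, which imports S-adenosylmethionine, measured 750, 933, 81.5 and 87.4 (-3.09), and the mitochondrial membrane protein gene sfxn2.S 1139, 990, 59.4 and 74.4 (-3.71). The same held for lsm2.L, a subunit of the ring that binds U6 RNA (1876, 2563, 218 and 214), and for pts.L, an enzyme of tetrahydrobiopterin synthesis (500, 401, 29.7 and 48.8). Likewise vta1.L of the multivesicular body pathway and 1 of 5 probe sets of hebp2.S, a heme-binding protein gene, had log2 differences of -2.87 and -2.99. In acod1lb.L (3016, 3071, 228 and 734, -2.84) and olfm4.L (624, 557, 90.5 and 43.1, -2.93) the arrays of experiment 1 were alike but those of experiment 2 less so.

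In the others the signal also differed between the injections within each experiment. The intelectin gene itln1.L, a lectin of the embryonic epidermis, measured 2914 and 529 in experiment 1 and 471 and 50 in experiment 2. The control of experiment 2 thus lay just below the xSGK1 array of experiment 1, and the difference was -2.82 ± 0.18 (limma adjusted p = 0.00174). The same descending order from control 1 to xSGK1 2 was seen in the keratin gene krt12.4.L (3923, 1402, 974 and 75.4) and in the otogelin-like gene otogl2.L (812, 196, 67.8 and 5.4). It was also seen in nxpe2.L (642, 323, 109 and 29.5), in the alpha-tubulin gene tuba1cl.3.L (571, 119, 35.8 and 1.2) and in LOC100158288, for which RefSeq lists the synonym epid21 (1407, 153, 29.5 and 2.9). For LOC100158288 the difference was -4.06 ± 0.42 (adjusted p = 0.00308), and its size likewise depended on the offset (-5.41 at 1 and -2.84 at 64).

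Injection differences were also counted among the called probe sets. These counts do not require the descending order of arrays described above. The share over all probe sets is not given here, so no excess is read from them. Of the 568 probe sets called at least 2-fold lower in experiment 2, 102 were also at least 2-fold lower with the xSGK1 morpholinos and 3 were at least 2-fold higher with them. Of the 629 called at least 2-fold higher, 59 were also at least 2-fold higher with the xSGK1 morpholinos and 5 lower. Injection differences stayed under 0.5 on the log2 scale for 344 of the higher and 307 of the lower probe sets. The 2 arrays least alike were control 1 and xSGK1 2, with a Pearson correlation of 0.799 over probe sets. The control pair had 0.898 and the xSGK1 pair 0.887, while xSGK1 1 with control 2 had 0.918, above both. Within experiments 1 and 2 the injections correlated at 0.955 and 0.942.

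**Figure D2:**
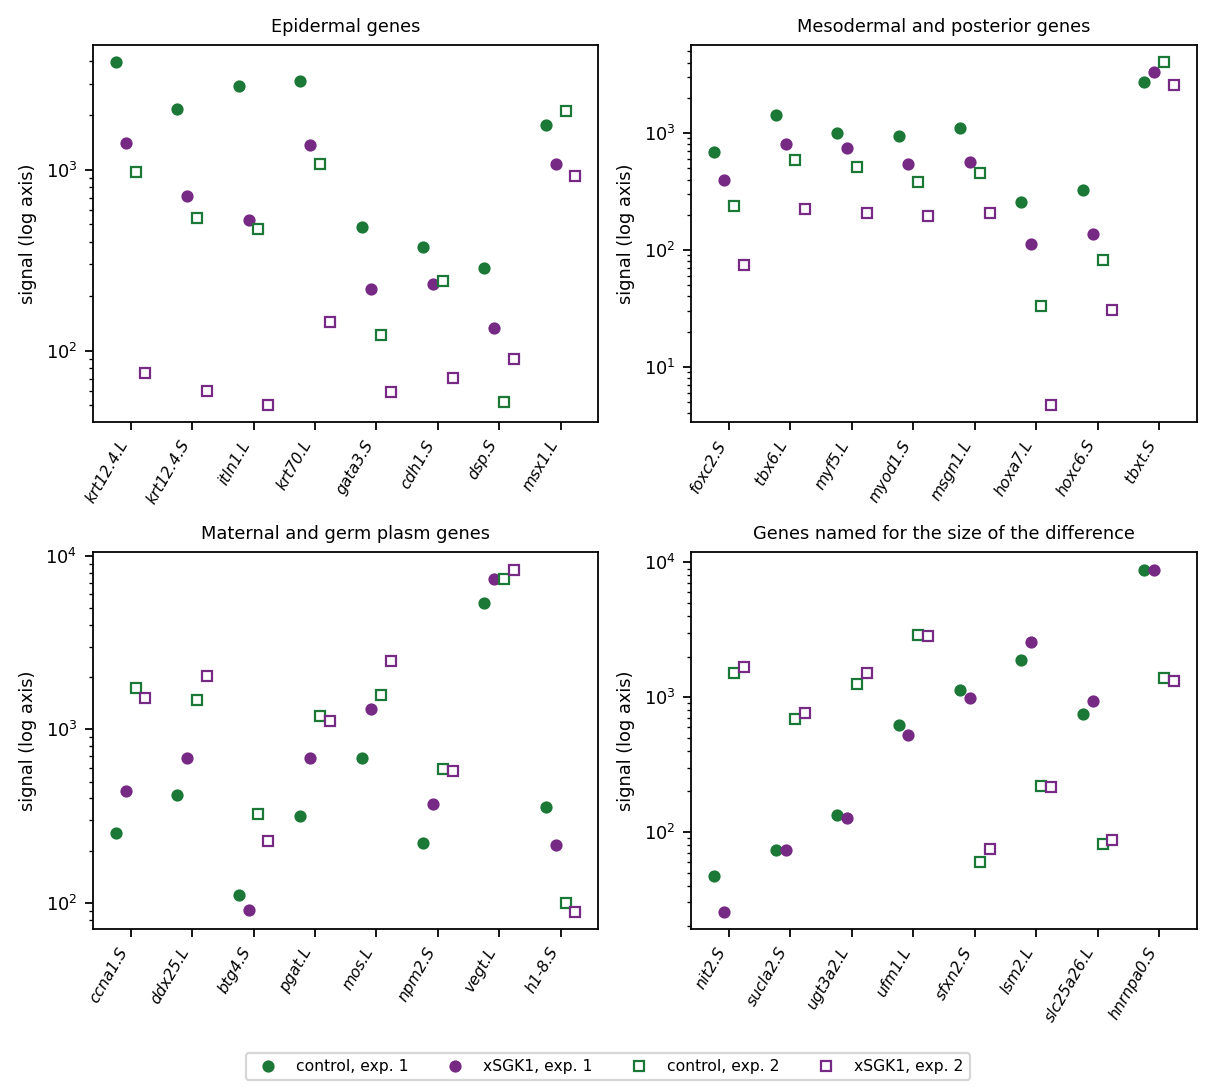
Signal (log axis) of selected genes on the 4 arrays, filled circles for experiment 1 and open squares for experiment 2, green for control and purple for xSGK1 morpholinos. The epidermal and mesodermal genes other than msx1.L and tbxt.S are highest in control 1, while most genes of the fourth panel have like signals within an experiment.

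Of 44 epidermal genes on the array 36 passed the filter on dim signal, of which 18 were lower in experiment 2 (50%, against 19.7% over all genes), 1 was higher (mal2.S, a membrane traffic protein, 1.14) and 17 were not called. Of the 18 lower, 3 (cyp26c1.S, gata3.S and dsp.S) had a mean under 100 in experiment 2 and passed the filter only through experiment 1. The list had a median log2 difference of -0.64 against 0.01 over all genes. The median was -0.42 in the control pair and -0.60 in the xSGK1 pair, and it was -0.28 without xSGK1 2 and -0.50 with dim genes kept. In whole-embryo RNA, fewer cells of a type and less RNA per cell cannot be told apart.

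Keratins of the embryonic skin led this list. The second krt12.4 copy, krt12.4.S, measured 2173, 713, 541 and 59.5 (-2.62 ± 0.30, limma adjusted p = 0.0037), and krt70.L 3084, 1369, 1078 and 144 (-2.31). Its bright homeolog krt70.S measured 19533, 15049, 11773 and 6667, with the experiments apart but a smaller difference of -0.95 ± 0.11. The GATA factor gata3.S, which acts downstream of BMP in ventral ectoderm, measured 481, 219, 122 and 59.0 (-1.75 ± 0.18). Junction genes belonged to the same count, with cdh1.S (E-cadherin) at -1.06 and the desmoplakin copies dsp.L and dsp.S at -0.80 and -1.32. The homeobox gene msx1.L, by contrast, measured 1779, 1078, 2103 and 924, overlapped fully, and had a difference of 0.01.

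Genes of ciliated cells and ionocytes were mostly too dim. Of 20 on the array 8 passed the filter, 2 higher and 1 lower (25% and 12.5%, against 21.3% and 19.7% over all genes), with a median of -0.02 (from -0.20 without xSGK1 1 to 0.05 without control 2). The carbonic anhydrase gene ca12.L, whose enzymes serve acid transport, measured 306, 254, 580 and 646, both arrays of experiment 2 above both of experiment 1 (1.09 ± 0.18, limma adjusted p = 0.0068). The proton pump subunit atp6v0d1.L was also higher (0.56), the Notch target hes5.10.L lower (-0.69), and ccno.L, a regulator of multiciliated cells, did not pass (-0.48, adjusted p = 0.0603).

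Several feedback antagonists and targets of BMP were lower in experiment 2. Of 31 measured BMP target genes (38 on the array) 12 were lower (38.7%, against 19.7% over all genes) and 1 higher, and the median was -0.53. Of the 31, 3 (szl.L, gata3.S and tbx3.L, the first pair called lower) had a mean under 100 in experiment 2 and passed only through experiment 1. The median was -0.16 without xSGK1 2 and -0.95 without control 2. The inhibitory SMAD smad7.L measured 620, 549, 145 and 180, a clear gap with little difference between injections (-1.76 ± 0.19, limma adjusted p = 0.00323). Sizzled, the ventral inhibitor of chordin proteases, measured 458, 139, 95.9 and 33.7 for szl.L (-1.86) and 434, 167, 135 and 87.5 for szl.S (-1.20), and the decoy receptor bambi.L had -0.87. Other targets did not pass, such as the homeolog bambi.S (-0.53) and ventx1.1.L. The latter measured 620, 526, 622 and 643, with control 2 barely above control 1 (0.14, adjusted p = 0.497).

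The mesoderm showed its lowest list medians in the paraxial and posterior genes. None of the 24 measured paraxial mesoderm and muscle genes (41 on the array) was higher (21.3% over all genes), 15 were lower (62.5%, against 19.7%), and the median was -0.81, with -0.59 in the control pair and -0.84 in the xSGK1 pair. The median ran from -1.30 without control 2 to -0.35 without xSGK1 2, and was -0.39 without control 1 and -1.17 without xSGK1 1. With 1 array left out there was no block, so these medians also hold part of the injection difference. When dim genes were kept the median was -0.35. Regulators of the presomitic mesoderm and of muscle were among the lower genes. The T-box factor tbx6.L measured 1437, 807, 591 and 224 (-1.52 ± 0.18, limma adjusted p = 0.00374), and the bHLH factor msgn1.L 1108, 569, 452 and 208 (-1.32 ± 0.15).

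The myogenic factors followed the same order of arrays. Signals of myod1.S were 935, 541, 380 and 195 (-1.33 ± 0.16, limma adjusted p = 0.00373), its homeolog myod1.L, which passed the filter only through experiment 1, had -1.26, and myf5.L measured 1001, 752, 515 and 208 (-1.36). The forkhead gene foxc2.S, active in paraxial mesoderm, measured 684, 396, 238 and 74.2 (-1.83 ± 0.22). In all of these both arrays of experiment 2 lay below both of experiment 1.

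Only 6 of 26 caudal and Hox genes passed the filter. Of the 6, 2 (hoxa7.L and hoxc6.S, both called lower) had a mean under 100 in experiment 2 (19.0 and 56.3) and passed only through experiment 1. Of the 6, 4 were lower and 0 higher, against 19.7% and 21.3% over all genes, and the median was -0.79, from -0.38 without xSGK1 2 to -1.24 without control 2 and -1.10 without xSGK1 1. The posterior Hox genes were hoxa7.L (258, 113, 33.3 and 4.7, -2.56 ± 0.21, limma adjusted p = 0.00193) and hoxc6.S (323, 138, 81.9 and 30.7, -1.76 ± 0.19). Both declined from control 1 to xSGK1 2. The TALE cofactor meis3.S, a posteriorizing factor in Xenopus neural tissue, had -0.97, and the homeobox gene evx1.L had -0.61 (adjusted p = 0.0311).

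Ventral and lateral mesoderm genes were less one-sided. Of 15 measured (25 on the array) 5 were lower (33.3%, against 19.7% over all genes) and 1 higher. Of the 5, szl.L and osr1.L had a mean under 100 in experiment 2 and passed the filter only through experiment 1. Also of the 5, szl.L, szl.S and evx1.L were counted among the lower BMP target genes too. The median of -0.33 was -0.17 with dim genes kept, -0.13 without xSGK1 2, -0.19 without control 1 and -0.57 without control 2. At a filter of 300 in place of 100 the median turned to 0.28. The kidney and lateral mesoderm regulator osr1.L measured 177, 168, 84.0 and 112 (-0.74, limma adjusted p = 0.0328).

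In the organizer and dorsal mesoderm list, members went both ways. Of 23 measured genes (31 on the array) 2 were higher (8.7%, against 21.3% over all genes) and 3 lower (13%, against 19.7%), and the median was -0.21, with 0.13 in the control pair and -0.46 in the xSGK1 pair. The WNT antagonist frzb.S measured 1260, 1976, 527 and 474 (-1.63 ± 0.21, limma adjusted p = 0.0043), both arrays of experiment 2 far below. Its homeolog frzb.L overlapped at 902, 803, 932 and 575 (-0.21, adjusted p = 0.366). The forkhead gene foxa4.L of the notochord and floor plate had -0.74, while its copy foxa4.S was not called (-0.09). The BMP antagonist chrd.1.S, chordin, measured 1657, 1675, 1230 and 766 (-0.77 ± 0.19, adjusted p = 0.0226). The notochord homeobox gene not.L was higher, at 557, 650, 976 and 868 (0.60 ± 0.16, adjusted p = 0.03). The organizer gene gsc.S overlapped at 157, 117, 161 and 82.6 (-0.20, adjusted p = 0.478). The list median was 0.22 without xSGK1 2 and -0.62 without control 2.

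In the neural ectoderm, called genes were lower. Of 28 measured neural plate genes (54 on the array) 8 were lower (28.6%, against 19.7% over all genes) and 0 higher. Of the 28, 3 (six3.L and neurog2.S, not called, and hesx1.L, called lower) passed the filter only through experiment 1, with a mean under 100 in experiment 2. The median was -0.30, and it was 0.01 without xSGK1 2 and -0.63 without control 2. The paired-box gene pax3.S, a marker of the neural border, measured 703, 790, 270 and 75.5 (-2.23 ± 0.40, limma adjusted p = 0.00898), and its brighter homeolog pax3.L 4181, 4058, 3168 and 3389 (-0.33, adjusted p = 0.0428). The anterior gene hesx1.L measured 232, 183, 94.7 and 17.9 (-1.86), the HES repressor hes4.L 2925, 2982, 1581 and 927 (-1.27), and sox2.L 519, 633, 314 and 193 (-1.17). In pax3.S, hesx1.L, hes4.L and sox2.L, control 2 lay well above xSGK1 2 while the arrays of experiment 1 were closer together. The anterior gene otx2.L (442, 472, 486 and 259) and zic1.S (697, 974, 1088 and 656) overlapped between the experiments, as did the homeolog hes4.S (-0.27).

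Neural crest and placode genes had a median of -0.39, with 7 of 15 measured (25 on the array) lower, or 46.7% against 19.7% over all genes, and 0 higher. It was -0.68 without xSGK1 1. Of the 7 lower genes, pax3.S, pax3.L and hes4.L were also counted among the lower neural plate genes. The crest repressor snai1.S measured 1612, 1489, 724 and 544 (-1.28 ± 0.15, limma adjusted p = 0.00362), and myc.L, which acts in crest precursors and in proliferation, 1860, 1446, 921 and 574 (-1.15 ± 0.15). Both showed the experiments apart in either injection.

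Of 26 measured endoderm genes (36 on the array) 4 were higher (15.4%) and 6 lower (23.1%), near the 21.3% and 19.7% over all genes, with a median of -0.18; without xSGK1 2 it was 0.11, without control 1 it was -0.08 and without control 2 it was -0.33. The T-box gene eomes.L, which acts in early mesendoderm, measured 1292, 1674, 2118 and 2786 (0.72 ± 0.12, limma adjusted p = 0.00679), and the Mix-family gene mixer.S 309, 574, 713 and 1024 (0.99 ± 0.16). Both had their lowest signal in control 1 and their highest in xSGK1 2, and mixer.L was higher by less (0.57). The cement gland marker ag1.L, an anterior gene listed with the endoderm, was lower, at 3113, 2270, 1508 and 454 (-1.66 ± 0.28, adjusted p = 0.00767). The plot of list members shows the tissue lists beside the others described below.

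**Figure D3:**
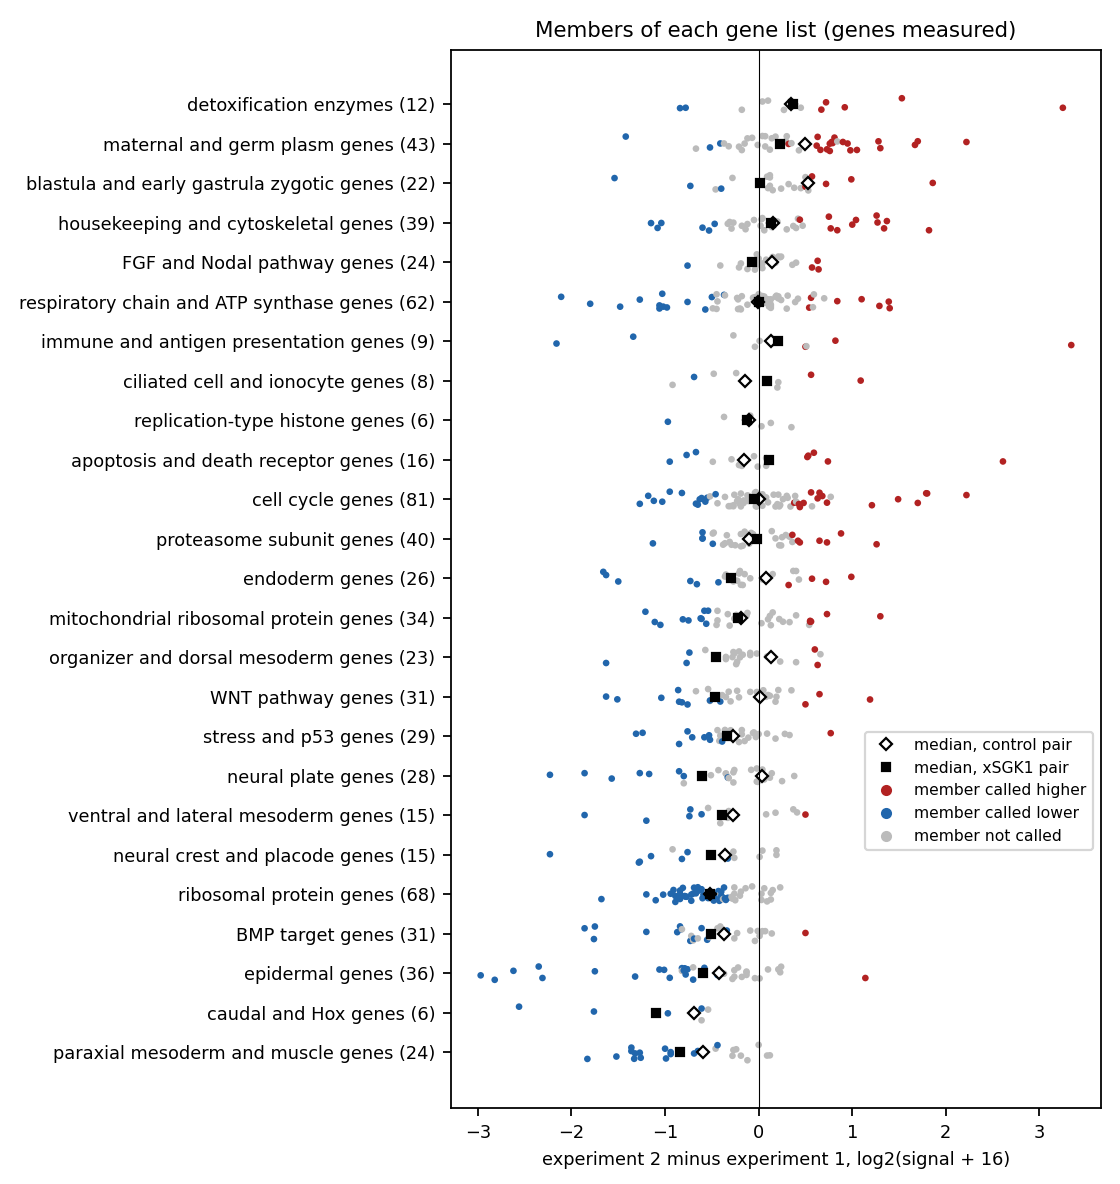
Log2 difference, experiment 2 minus experiment 1, of each measured member of 25 gene lists (points, coloured by limma call; number of genes in brackets), with the list median in the control pair (diamond) and the xSGK1 pair (square). Ribosomal protein, epidermal, paraxial and caudal genes lie mostly left of 0, and maternal genes and detoxification enzymes mostly right.

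Transcripts that the egg stores were more often higher in experiment 2. Of 43 measured maternal and germ plasm genes (45 on the array) 20 were higher (46.5%, against 21.3% over all genes) and 3 lower, with a median of 0.35. It was 0.50 in the control pair and 0.23 in the xSGK1 pair, 0.09 without control 1, 0.67 without xSGK1 1 and 0.52 without control 2. Among the 43, 4 had a mean under 100 in experiment 1 and passed the filter only through experiment 2, and the count of 20 higher may include them. Another 1 had a mean under 100 in experiment 2 and passed only through experiment 1.

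Germ plasm and oocyte genes were among the called members. The germ cell helicase ddx25.L measured 416, 682, 1481 and 2026 (1.67 ± 0.14, limma adjusted p = 0.00208), and the second cyclin A1 copy, ccna1.L, 223, 514, 913 and 1421 (1.70 ± 0.18). The kinase mos.L, which arrests the egg in meiosis, measured 684, 1303, 1575 and 2487 (1.05 ± 0.14). In these the xSGK1 array exceeded the control array within each experiment, and experiment 2 exceeded experiment 1. The germ plasm gene pgat.L (1.28), the maternal antiproliferative gene btg4.S (1.3), the RNA-binding gene dazl.L (0.66) and the zona pellucida gene zp2.L (0.78) were higher too. The maternal T-box transcript vegt.L measured 5354, 7336, 7335 and 8344 (0.32 ± 0.10, adjusted p = 0.0408).

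Exceptions ran the other way or not at all. The oocyte linker histone h1-8.S measured 356, 216, 100 and 88.2 (-1.42 ± 0.21, limma adjusted p = 0.00558), lower in both arrays of experiment 2. Its mean in experiment 2 was under 100, so h1-8.S passed the filter on dim signal only through experiment 1. The chaperone gene npm2.L (nucleoplasmin) overlapped at 1319, 1424, 1470 and 996 (-0.18), while npm2.S was higher (0.98), and the growth factor gdf1.S measured 828, 1712, 872 and 1710 (0.04, adjusted p = 0.842), so that both xSGK1 arrays lay above both controls.

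Zygotic genes of the blastula and early gastrula had a median of 0.20, with 5 of 22 measured (31 on the array) higher and 3 lower, or 22.7% and 13.6% against 21.3% and 19.7% over all genes; the median was 0.53 in the control pair and 0.01 in the xSGK1 pair, 0.02 without control 1, 0.50 without xSGK1 1 and 0.32 without xSGK1 2. The POU factor pou5f3.3.L measured 207, 410, 645 and 1873 (1.86 ± 0.19, limma adjusted p = 0.00308), and wnt8a.L 2130, 2933, 3675 and 3390 (0.50 ± 0.16). The gastrula gene gs17.L went the other way, at 2374, 916, 958 and 254 (-1.54 ± 0.17), as did pou5f3.1.L (-0.40). In gs17.L the xSGK1 array of experiment 1 was close to the control of experiment 2.

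Ribosomal proteins had the largest share of lower genes of any list described here. Of 68 measured ribosomal protein genes (71 on the array) 49 were lower (72.1%, against 19.7% over all genes) and 0 higher. The median was -0.51, and it was -0.52 in each pair. Leaving out an array gave -0.39 without control 1, -0.36 without xSGK1 2, and -0.65 without either of the other arrays. Differences ran from -1.68 to 0.23, and 60 of the 68 were below 0.

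Single members showed the same order of arrays as the epidermal genes, over a narrower range. The large-subunit gene rpl4.S measured 1319, 783, 384 and 244 (-1.68 ± 0.15, limma adjusted p = 0.00233), rpl31.S 5336, 4184, 2605 and 2076 (-1.02 ± 0.10), and rpl27.S 3435, 3035, 1887 and 1591 (-0.89 ± 0.11). The small-subunit gene rps12.L measured 2480, 1863, 1153 and 854 (-1.10 ± 0.12). The acidic stalk gene rplp0.S did not pass, at 5697, 5224, 6170 and 5452 (0.09 ± 0.08, adjusted p = 0.435). Of 34 mitochondrial ribosomal protein genes 5 were higher and 10 lower (14.7% and 29.4%, against 21.3% and 19.7% over all genes), with a median of -0.19 (-0.03 without xSGK1 1, -0.07 without control 2 and -0.30 without control 1). Among them mrpl38.L was higher (1.3) and mrpl41.L, mrpl51.L and mrps33.L were lower (-1.21, -1.11 and -1.05).

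Of 62 measured respiratory chain and ATP synthase genes 7 were higher and 13 lower (11.3% and 21%, against 21.3% and 19.7% over all genes), with a median of 0.03 but a mean of -0.08; the median ran from -0.14 without control 1 to 0.09 without control 2. The complex III subunit uqcrq.S measured 1294, 609, 352 and 104 (-2.11 ± 0.19, limma adjusted p = 0.00237). The cytochrome oxidase subunits cox7c.L and cox6a1.L had -1.48 and -1.27, while the copy cox6a1.S was not called (0.06). Against the lower genes, uqcrc1.L (293, 609, 626 and 2042, 1.39) and cox4i2.S (649, 885, 1896 and 1853, 1.29) were higher. Subunits of 1 complex thus stood on both sides. Among the lower genes, ndufb8.L had a mean under 100 in experiment 2 and passed the filter only through experiment 1.

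Proteasome subunits had 7 higher and 5 lower of 40 (17.5% and 12.5%, both under the shares over all genes, 21.3% and 19.7%), with a median of -0.09 (-0.15 without xSGK1 1). In that list psmd9.S (1.26) and psmd5.L (0.88) were higher, and psma4.L (-1.13) and psma7.L (-0.60) lower. Of these, psmd9.S passed the filter only through experiment 2. Of 6 replication-type histone genes 1 was lower, h2ac17.L (874, 1287, 478 and 598, -0.97). The bright h3c13.S measured 9391, 9676, 9323 and 8630. The histone median of -0.03 ran from -0.58 without xSGK1 2 to 0.30 without xSGK1 1. Housekeeping and cytoskeletal genes were mixed, with 11 higher and 6 lower of 39 (28.2% and 15.4%) and a median of 0.14, or 0.22 without control 2. Among them actb.L (10682, 10773, 9816 and 9589) and eef1a1.S (15609, 15522, 17960 and 16517) did not pass, while the actin-severing gene cfl1.L was higher at 2448, 2442, 4407 and 4361 (0.84 ± 0.10, limma adjusted p = 0.00374).

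Of 81 measured cell cycle genes (86 on the array) 15 were higher and 13 lower (18.5% and 16%, near the 21.3% and 19.7% over all genes), with a median of -0.03, which ran from -0.11 without control 1 to 0.08 without xSGK1 1. Some genes of DNA synthesis stood on the higher side: the ribonucleotide reductase subunit rrm1.L measured 792, 904, 2359 and 2460 (1.49 ± 0.13, limma adjusted p = 0.002), the S-phase factor e2f1.L 214, 282, 679 and 1162 (1.79 ± 0.17), and the clamp loader subunit rfc3.L 149, 265, 640 and 843 (1.80 ± 0.17). In all 3 the experiments were apart. On the lower side were the replicative helicase subunit mcm4.S (325, 322, 108 and 144, -1.27), the kinase cdk2.S (914, 823, 391 and 390, -1.12) and the survivin copy birc5.S (2371, 2549, 1237 and 1294, -0.95). Another clamp loader subunit, rfc4.L, was also lower (707, 750, 307 and 318, -1.18), so genes of DNA synthesis stood on both sides.

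Apoptosis genes went both ways around the caspase named above, with 5 higher and 3 lower of 16 measured (31.2% and 18.8%, against 21.3% and 19.7% over all genes) and a median of -0.03 against a mean of 0.09. Cytochrome c, cycs.S, which triggers the apoptosome, measured 2141, 2320, 1300 and 1299 (-0.77 ± 0.12, limma adjusted p = 0.0063). The death receptor adaptor fadd.S measured 188, 295, 183 and 300, and its experiments overlapped (-0.01). The list median ran from -0.22 without xSGK1 2 to 0.08 without control 2. Of the higher genes, casp10.L had a mean under 100 in experiment 1 and passed the filter only through experiment 2.

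Of 29 measured stress and p53 genes 9 were lower (31%, against 19.7% over all genes) and 1 higher (3.45%, against 21.3%), with a median of -0.30. Chaperones were among them. The endoplasmic reticulum chaperone hspa5.L measured 2291, 1089, 729 and 542 (-1.31 ± 0.19, limma adjusted p = 0.00521) and its homeolog hspa5.S 1345, 818, 392 and 480 (-1.24). Of the HSP90 family, hsp90b1.S had -0.85 and hsp90ab1.S -0.53, while the copy hsp90b1.L was not called (-0.30). The 1 higher gene was the p53 target sesn1.L (70.7, 222, 95.9 and 522, 0.77, adjusted p = 0.0472), in which the injection gap within each experiment exceeded that between them.

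Of 33 detoxification enzymes 21 were too dim. Of the 12 measured 5 were higher and 2 lower (41.7% and 16.7%, against 21.3% and 19.7% over all genes), with a median of 0.36, from 0.15 without xSGK1 2 and 0.17 without control 1 to 0.56 without xSGK1 1; with dim genes kept it was 0.15. The peroxiredoxin prdx1.S measured 846, 990, 3106 and 2307 (1.53 ± 0.18, limma adjusted p = 0.00372), and the glutathione transferase gstm1.S 1660, 2178, 2704 and 3629 (0.72 ± 0.11). The transferase gsta1.S was lower (298, 421, 138 and 288, -0.78), with xSGK1 2 just below control 1. Of the higher enzymes, prdx2.L had a mean under 100 in experiment 1 and passed the filter only through experiment 2. Of 9 measured immune genes 3 were higher and 2 lower (33.3% and 22.2%), with a median of 0.01 (-0.12 without xSGK1 2 and 0.28 without xSGK1 1). Complement genes were the lower ones, with cfb.L at 243, 166, 40.7 and 25.7 (-2.16 ± 0.20) and c3.L at 553, 210, 162 and 96.4 (-1.34). The chemokine receptor cxcr4.S was higher, at 1384, 1099, 2382 and 2024 (0.82). Among the called immune genes, irf3.L passed the filter only through experiment 2 and cfb.L only through experiment 1.

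WNT pathway genes had 3 higher and 9 lower of 31 measured (9.68% and 29%, against 21.3% and 19.7% over all genes), with a median of -0.30, 0.01 in the control pair and -0.47 in the xSGK1 pair; it was 0.04 without xSGK1 2, -0.19 without control 1 and -0.51 without control 2. The Frizzled receptors fzd10.S and fzd2.S were among the lower genes: fzd10.S measured 1519, 730, 639 and 200 (-1.51 ± 0.19, limma adjusted p = 0.00389) and fzd2.S 502, 377, 233 and 178 (-1.04). The effector beta-catenin was a little lower in both copies, ctnnb1.L at 4087, 4046, 2813 and 2849 (-0.52) and ctnnb1.S (-0.41). The feedback gene axin2.L had -0.76, while its copy axin2.S was not called (0.19). The acyltransferase porcn.L, which lipidates WNT ligands, was higher (83.5, 144, 232 and 317, 1.19). FGF and Nodal genes had 3 higher (spry2.L, smad2.L and lefty.S, at 0.64, 0.57 and 0.63) and 1 lower (the immediate early gene egr1.L, -0.76) of 24 (12.5% and 4.17%), with a median of 0.04 that ran up to 0.14 without xSGK1 1 and was 0.11 without control 1 or xSGK1 2. The call of lefty.S (adjusted p = 0.043) was lost without the filter (0.0647) and with quantile normalization (0.0548).

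Homeologous copies of a gene did not always stand alike between the experiments. Of 655 pairs with both copies measured, both were called in the same direction in 124 (58 higher, 66 lower) and in opposite directions in 17. In 279 pairs 1 copy was called and in 235 neither. Over all genes 21.3% were called higher and 19.7% lower, and with such shares pairs with 1 copy called are frequent even among unrelated genes. A call in 1 copy only is not a test of the gap between the copies, which was not tested. The median gap between copies was 0.39 on the log2 scale, 81 pairs were at least 2-fold apart and 7 at least 4-fold. Over pairs the copies correlated at 0.495 (Pearson) and 0.471 (Spearman), given as a description. Transcripts of the copies can cross-hybridise, so a gap between them is measured with that limit. The share called was alike in the subgenomes, with 21.4% of 2945 .L genes and 20.7% of 2105 .S genes higher and 19.7% and 19.5% lower.

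The largest gaps with only 1 copy called were in genes of different functions. The Mediator subunit med8.L measured 322, 159, 51.8 and 59.5 (-1.77, limma adjusted p = 0.00743) and med8.S 319, 399, 577 and 445 (0.49, adjusted p = 0.107). The dynactin subunit actr10.L was apart between the experiments, at 506, 625, 84.5 and 93.0 (-2.47), while actr10.S measured 421, 465, 205 and 444 and overlapped (-0.52, adjusted p = 0.135). The UDP-glucose dehydrogenase ugdh.L measured 1287, 1031, 294 and 336 (-1.82), and ugdh.S 564, 740, 595 and 950 (0.22). Here a deficit stood in 1 copy with both injections. Of the lower copies, med8.L and actr10.L had a mean under 100 in experiment 2 (55.6 and 88.8). They passed the filter only through experiment 1.

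The same was seen with an excess. The 14-3-3 gene ywhaz.L measured 296, 218, 818 and 1082 (1.82, limma adjusted p = 0.00389), and ywhaz.S 2815, 3375, 3458 and 3614 (0.20, adjusted p = 0.185). In dapl1 the .S copy was higher (424, 1078, 1515 and 3648, 1.77), and in anxa2 the .S copy, an annexin, was lower (902, 524, 304 and 137, -1.67), with the .L copies not called. Among the 15 largest deficits, hnrnpa0.S had a homeolog with a smaller one: hnrnpa0.L measured 6876, 6887, 4731 and 4976 (-0.50, adjusted p = 0.00756). Pairs called in opposite directions, chosen after their values were seen, were the COPII coat gene sec16a (.L 679, 726, 392 and 388, .S 412, 350, 958 and 831) and the alpha-actinin gene actn1 (-1.25 and 0.85).

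**Figure D4:**
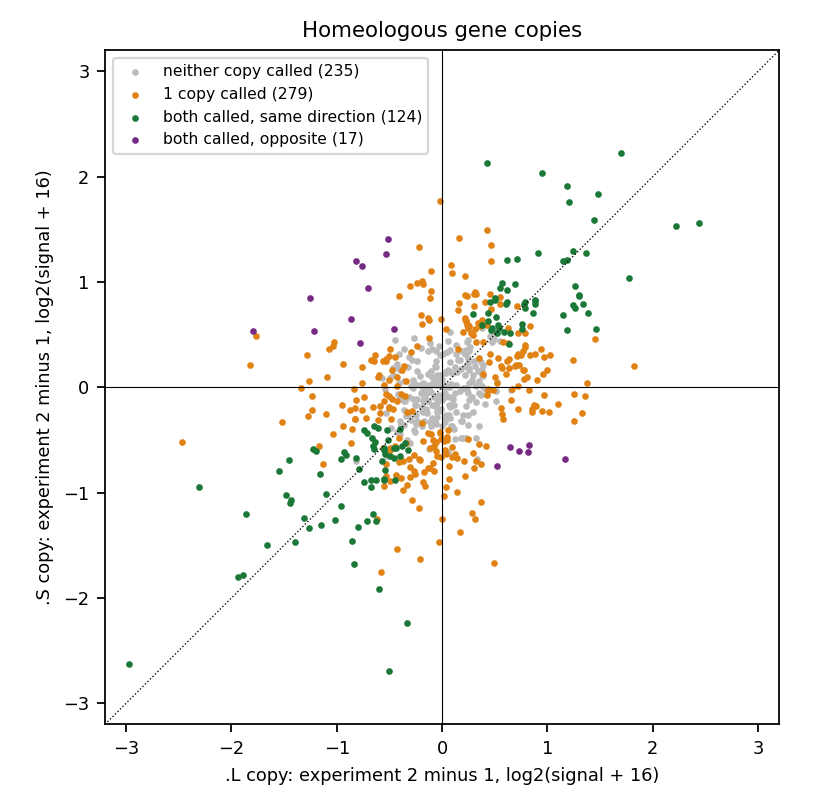
Log2 difference, experiment 2 minus experiment 1, of the .L copy (horizontal axis) and the .S copy (vertical axis) for 655 gene pairs, coloured by which copies were called; the dotted line marks equal differences. Green points (124 pairs called in the same direction) lie in the quadrants of equal sign, and the orange points (279 pairs) spread along both axes.

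Where a named gene had more than 1 probe set, the sets mostly kept the direction but not the size. Among all 731 genes with several, 649 had probe sets within 2-fold of each other and the median range was 0.37. The second set of txn2.L had 494, 671, 1021 and 1074 (0.85, against 3.03), that of lsm2.L -0.74 (against -3.25), and the other sets of sfxn2.S -1.09 and -1.12 (against -3.71). The sets of tuba1cl.3.L were close, at -2.44, -2.63 and -3.24. For otogl2.L 1 set gave -2.84, and another measured 301, 238, 372 and 284 with no call (0.26, limma adjusted p = 0.238). The 5 sets of hebp2.S disagreed in direction, at -2.99, -1.45, 0.05, 1.09 and 1.67, so no direction is given for the gene as a whole.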

How the data were processed

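RNA of whole stage 12 embryos (100 ng per sample, 2-cycle labelling) was hybridised to Affymetrix Xenopus laevis arrays, per the labels' protocols. The authors deposited 1 linear intensity per probe set, computed by MAS 5 (submitters' processing notes) in GCOS 1.4 (series text). Their 2% trimmed means of 500.0 to 500.1 show that each array had been scaled. Detection calls and scanner files were not used here, and 4 arrays limit the precision.

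From these intensities log2(signal + 16) was taken. Leaving out 120 controls and every probe set whose mean signal was under 100 kept 9251. The platform annotation gave 9304 of 15611 probe sets 1 symbol, gave 195 several and left 6112 unnamed; 9227 were found in RefSeq (Xenopus_laevis_v10.1) and 2 symbols were updated. Coordinates are left out because the sources used here give the array no build. Experiment 2 was compared with experiment 1 in limma 3.58.1 (R 4.3.3; lmFit, eBayes with intensity trend, injection as a block, 1 residual degree of freedom), two-sided, with p-values adjusted by Benjamini-Hochberg across the 9251 and called at 0.05. The series text calls the replicates independent experiments.

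The members, the 26 gene lists and the tests were chosen with earlier results of these data known, and lists are described by counts and medians with no test. Lists use the brightest probe set of each gene. Some genes belong to several lists, such as frzb.S to the organizer, endoderm and WNT lists, so list counts are not separate observations. Named genes are the 15 largest differences each way past the threshold without overlap, from each list at most 4 members by moderated statistic, the 6 homeolog pairs with the widest gap and 1 copy called, all probe sets of the first group, and sgk1; further members were named after their values were seen. On simulated data (5 runs of 9251 probe sets, 200 changed) the fit recovered 9.6% of 1.5-fold, 51.6% of 2-fold, 90.8% of 3-fold and 95.6% of 4-fold differences, and 5.79% of calls were false. Simulated probe sets had independent errors, which real ones need not have. No injection effect was simulated, and the 200 changed probe sets were far fewer than the 3776 called in the data. The shares recovered and false therefore need not hold for the data. Alternatives were other offsets, filters, normalizations and variance models, no block, probe sets with a cross-hybridising suffix left out, each array left out and each injection alone. Figures were drawn with matplotlib 3.10.9.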

Additional observations from a re-analysis of the deposited data

Results flagged for a closer look

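A difference that ran one way with the control morpholino and the other way with the xSGK1 morpholinos was seen in 2 probe sets at 2-fold or more. The gene tent5a.L, a noncanonical poly(A) polymerase, measured 349, 239, 146 and 517, with a log2 difference of -1.17 in the control pair and 1.06 in the xSGK1 pair. A probe set without a gene name in the annotation used here measured 56.9, 76.5, 4.4 and 263, with -1.84 and 1.59. These differences between the injections were not tested, since 4 arrays leave no spread for them.

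The medians of 7 gene lists also had opposite signs in the pairs, again untested. In the xSGK1 pair the median was -0.61 for neural plate genes (0.04 in the control pair), -0.46 for organizer and dorsal mesoderm genes (0.13), -0.47 for WNT pathway genes (0.01) and -0.30 for endoderm genes (0.08). It was -0.07 for FGF and Nodal pathway genes (0.14), 0.11 for apoptosis genes (-0.16) and 0.09 for ciliated cell and ionocyte genes (-0.15).

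Among the control probe sets, which no comparison used, 26 had a mean signal of at least 100. In 9 of these both arrays of experiment 2 were above both of experiment 1, and in 4 below. Over all probe sets tested, 61.5% had no overlap in either direction. The 4 probe sets of the added transcript bioC were higher by 1.58 and 1.54 for the BioC-3 and BioC-5 sets, and by 1.45 and 1.67 for the bioC sets of the second series. The control probe sets for alpha-1 actin of Xenopus, a muscle gene, were lower. The 3' set measured 956, 152, 29.8 and 2.6 (log2 -3.79) and the middle set 599, 176, 98.4 and 45.5 (-2.04).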

How the results depend on the processing

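No paired analysis was possible because the replicate number, by which arrays of different injections could be paired, is the experiment number and so the factor compared; arrays of like injection are already matched by the injection block. Counts of calls stayed within 1.5 times under other offsets, filters, normalizations, the variance model without trend and without cross-hybridising probe sets; with no injection block they were 31 higher and 27 lower, since the injection difference then enters the spread. With 1 array left out, which also drops the block, they ran from 1 to 459 higher and from 0 to 612 lower. Of 117 called named probe sets, 100 lost their call without the block and 117, 116, 34 and 92 without control 1, xSGK1 1, control 2 and xSGK1 2; none reversed. Probe sets at least 2-fold higher and lower in both pairs numbered 272 and 237 with an offset of 64, 267 and 201 at a filter of 300, 704 and 574 in the control pair alone, and 668 and 682 in the xSGK1 pair alone.

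List medians kept their value within the spread under every other setting apart from those that follow, whose cause was not tested. The spread of a list is the median, over its genes, of the SD between the differences in the control and xSGK1 pairs. It was 0.486 for organizer and 0.555 for neural plate genes, so a median within it could change sign. Without xSGK1 2 that of the organizer list was 0.22 against -0.21, and that of the endoderm list also turned positive. Fits without 1 array had no block, so their medians also hold part of the injection difference. At a filter of 300 ventral and lateral mesoderm genes reversed to 0.28, and ciliated, neural crest, immune and differentiated cell genes moved to -0.24, -0.76, 0.50 and -1.15. With no filter the differentiated cell markers reversed to 0.03, and paraxial, detoxification and glycolytic genes moved to -0.35, 0.15 and 0.75. In the xSGK1 pair alone caudal and Hox genes had -1.10 and glycolytic enzymes 0.82. With arrays left out, medians ran from 0.09 to 0.67 (maternal), -0.73 to -0.28 (epidermal), -0.95 to -0.16 (BMP targets), -1.30 to -0.35 (paraxial), -1.24 to -0.38 (caudal and Hox), 0.15 to 0.56 (detoxification), -0.12 to 0.28 (immune), -0.51 to 0.04 (WNT), -0.65 to -0.36 (ribosomal proteins), -0.58 to 0.30 (histones) and 0.65 to 1.19 (glycolytic enzymes).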

Other observations

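Most measured glycolytic enzymes, a list made after their values were seen, were called higher in experiment 2. Of 23 on the array 16 passed the filter, of which 12 were called higher by limma and 0 lower, against 21.3% and 19.7% over all genes. The other 4 (aldoa.L, aldoa.S, hk2.L and pfkm.S) were not called, and aldoa.L and hk2.L were below 0. In 13 both arrays of experiment 2 were above both of experiment 1, where 61.5% of all probe sets had no overlap in either direction. Because the members were picked with their values known, these counts support nothing. The median log2 difference was 1.02, with 1.18 in the control pair and 0.82 in the xSGK1 pair, and 0.65 without control 1. Enolase copies measured 2364, 1845, 5570 and 4624 for eno1.S (1.27) and 674, 1481, 2372 and 2858 for eno1.L (1.37). Pyruvate kinase pkm.L, the last step of the pathway, measured 1256, 1604, 3294 and 3576 (1.26), and gapdh.L 304, 456, 766 and 754 (1.0). The members with the extreme values were aldoa.L at -0.27, not called, and pgam1.L at 2.44. In pgk1 (316, 1057, 937 and 2392, 1.34) and gpi.S (1319, 801, 2874 and 1596, 1.05) the injections also differed within each experiment.

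On the log2(signal + 16) scale the largest difference of all was in a probe set with no gene name in the annotation used here, singled out after its value was seen. It measured 22.7 and 17 in experiment 1 and 6291 and 4511 in experiment 2, a log2 difference of 7.22 ± 0.16 (limma adjusted p = 7.3e-05). With a mean of 19.9 in experiment 1 it was near the floor there and passed the filter only through experiment 2. The size of the difference thus depends on the offset of 16.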
